A study of Homo sapiens with 6 samples.

Results

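The cytosolic ribosomal protein genes were followed on 6 expression arrays of MCF-10A, a nontransformed line of immortalized mammary epithelial cells: 3 arrays of cells given a lentivirus that carries MBD2, a protein that binds methylated DNA, and 3 control arrays. Members were the genes whose probe sets carry 1 symbol of the RPL or RPS form (or RPLP0, RPLP1, RPLP2 or RPSA), with pseudogenes left out and with the brightest probe set on average kept for each gene. This gave 59 genes of the 19775 genes tested, from 120 of 41091 probe sets with 1 symbol. They comprised 30 proteins of the large subunit, 20 of the small subunit, the stalk proteins RPLP1 and RPLP2, and 7 paralogs (RPL3L, RPL7L1, RPL10L, RPL22L1, RPL26L1, RPL39L and RPS27L). Of 84 protein-coding genes of RefSeq whose symbols have this form, another 15 had probe sets shared with other symbols only, among them RPL5, RPL10 and RPL13A, and 10 had no named probe set here, among them RPLP0, RPSA, RPS27A and RPL26. Those 25 genes were not analysed here. Both groups were grown in the same mammary epithelial medium, and the virus was packaged in HEK293 cells. On the controls the sources differ: they received an empty virus according to the study's methods, but no virus according to the submitters' design text. The methods call the arrays biological replicates and the design text calls them technical ones. Whether separate cultures were used is not given in the sources used here, so p-values rest on array-to-array spread alone, and some of that may be technical. The number of arrays limits the precision.

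A ribosome is built from ribosomal RNA and a fixed set of proteins, nearly all of them needed in equal numbers in every ribosome. Their mRNAs are among the most abundant of a growing cell, and most begin with a 5′ terminal oligopyrimidine (TOP) tract, a C followed by a run of pyrimidines, through which mTOR signalling and LARP1 govern their translation and stability. Some members have a paralog, a second gene for a closely related protein that can be expressed in few tissues or under stress.

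The transcript of MBD2 was high in every array labelled MBD2, with log2 values of 12.17, 11.72 and 12.50 in MBD2 arrays 1, 2 and 3, against 8.92, 9.03 and 9.68 in control arrays 1, 2 and 3. Within each group 1 array stood apart. MBD2 array 1 was more than 2-fold from MBD2 array 2 in 2877 genes, while MBD2 arrays 2 and 3 were that far apart in 95. Control array 3 was more than 2-fold from control array 1 in 1572 genes, while control arrays 1 and 2 were that far apart in 5. Results that rest on these arrays are given with and without them. Of the basal epithelial markers, KRT5, KRT14, ITGB4 and LAMB3 had a measured probe set, and all 4 were above the array median of 5.24 on every array.

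Of the 59 ribosomal protein genes, 1 was higher in cells overexpressing MBD2 and 0 were lower, at an adjusted p under 0.05 (limma, adjusted by Benjamini-Hochberg across the whole table). Among all genes tested, 1.26% were called higher, 1.51% lower and 2.78% either way. The gene that rose was RPS27L, the paralog of the small subunit protein RPS27, known as a target of p53. At an unadjusted p under 0.05 the members gave 1 gene higher (RPS27L) and 1 lower (RPL27A), where 8.69% of all genes were higher and 9.59% lower. The log2 fold changes of the members, MBD2 minus control, had a median of -0.11, beside -0.02 over all genes, with 21 above 0 and 38 below 0. They ran between 0.96 for RPS27L and -0.71 for RPL36. The plot of fold change against level shows the members close to 0 at the bright end of the array.

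**Figure D1:**
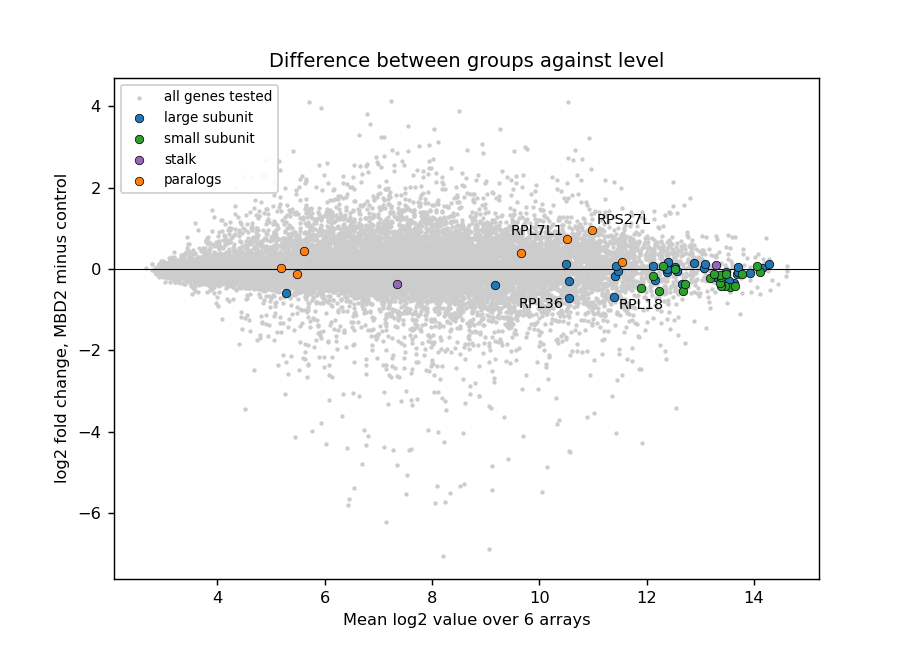
Each point is a gene, with its mean log2 value over the 6 arrays on the x axis and its log2 fold change (MBD2 minus control) on the y axis. Grey points are the 19775 genes tested and coloured points the 59 ribosomal protein genes, which lie between -0.71 (RPL36) and 0.96 (RPS27L).

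Few members separated the groups. On the probe sets kept, every MBD2 array was above every control array in 1 gene, RPS27L. In 3 genes every MBD2 array was below every control array, where 10.4% and 14.6% of all genes showed these patterns. Probe sets that were not kept lay below in further members, given with the probe sets later on. The 3 genes, chosen for description after their values were seen, were RPL27A of the large subunit, and RPS3, which lies at the mRNA entry channel, and RPS21 of the small subunit. RPL27A had log2 values of 9.10, 8.82 and 9.03 in the MBD2 arrays and 9.30, 9.36 and 9.49 in the control arrays. Its log2 fold change of -0.40 (SE 0.12) did not pass the test (adjusted p = 0.161, limma). RPS3 had 12.87, 13.49 and 13.37 in the MBD2 arrays and 13.54, 13.60 and 13.86 in the control arrays, and MBD2 arrays 2 and 3 lay just under the lowest control. Its adjusted p was 0.321 at a log2 fold change of -0.43, and that of RPS21 was 0.395 at -0.34 (limma).

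What the ribosomal protein genes shared was their order over the 6 arrays. The lowest value lay on MBD2 array 1 in 55 of the 59 genes (93.2%), where 26.1% of all genes were lowest. The highest lay on control array 3 in 38 genes (64.4%), against 23.9% of all genes, and both held in 37 (62.7%), against 8.58% of all genes. Set against the mean of each gene over the 6 arrays, the median member was at -0.71, 0.24 and 0.16 on MBD2 arrays 1, 2 and 3, against -0.11, -0.11 and 0.41 on control arrays 1, 2 and 3. By these medians MBD2 arrays 2 and 3 lay above control arrays 1 and 2. MBD2 array 1 lay below all control arrays and control array 3 above all MBD2 arrays. The groups overlapped in 55 of the 59 genes. The exceptions to the low values on MBD2 array 1 were RPS27L, RPL26L1, RPL27A and RPL36A.

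**Figure D2:**
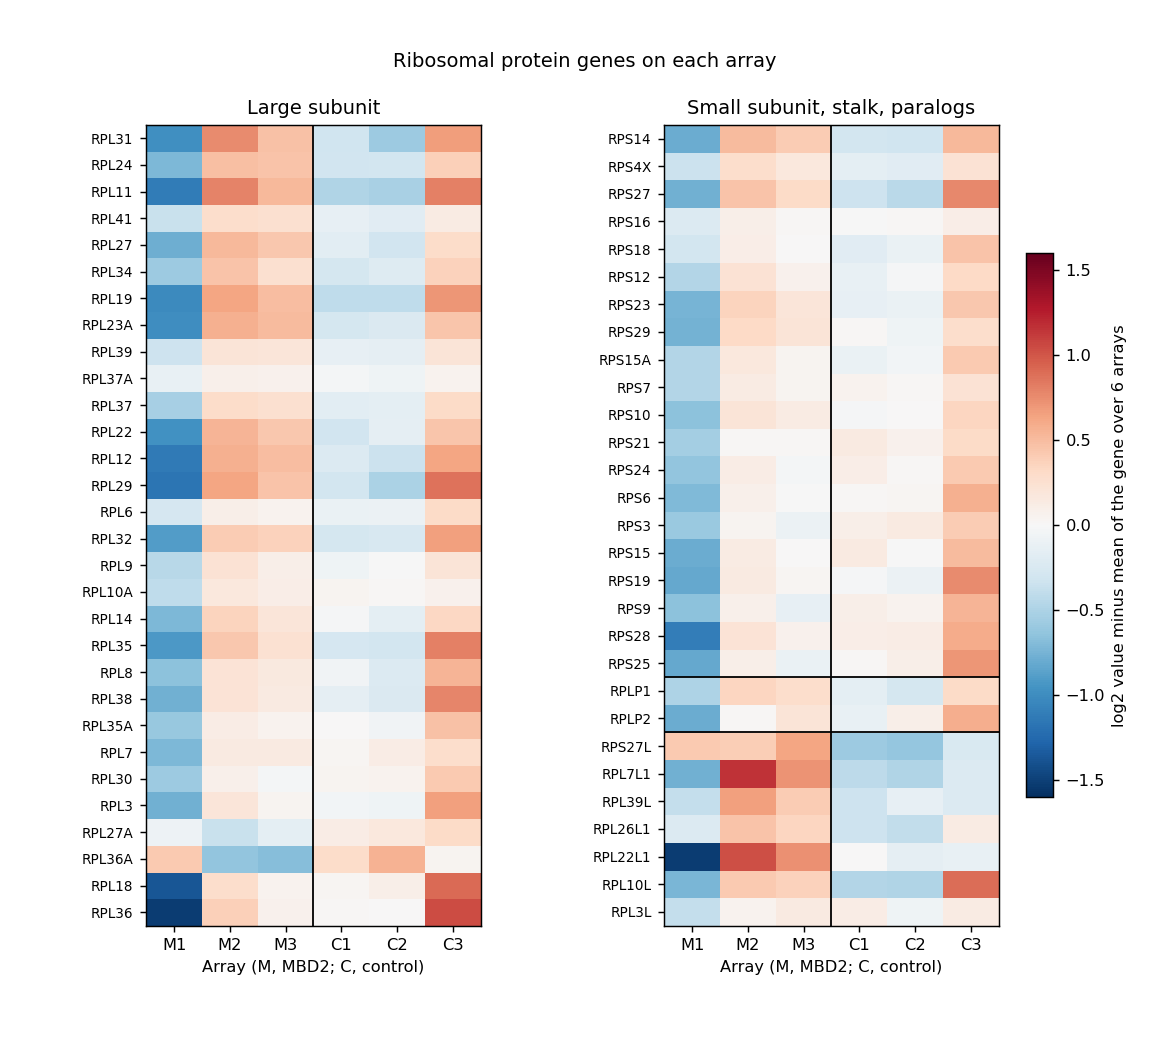
Heat map of the 59 ribosomal protein genes (rows, by subunit and then by log2 fold change) on the 6 arrays (columns, MBD2 arrays M1 to M3 left of control arrays C1 to C3). Colour is the log2 value minus the mean of that gene, and nearly all rows are blue on M1, with 55 of 59 at their lowest there.

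The spread within groups was large beside the differences between them. The median within-group SD of the members was 0.43, beside 0.21 over all genes. It was not particular to them: mitochondrial ribosomal proteins had 0.44, ribosome biogenesis factors 0.45 and initiation factors 0.42. Housekeeping genes outside the ribosome had 0.25. Between MBD2 arrays 1 and 2, 25 members were more than 2-fold apart, and between control arrays 3 and 1, 7 were. Between MBD2 arrays 3 and 2, and between control arrays 2 and 1, 0 members were that far apart. Genes with a mean log2 value of 13 or above (26 members) spanned a median of 0.84 log2 units over the 6 arrays, those between 11 and 13 (21 members) 1.54 and those under 11 (12 members) 1.25.

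Some other measures also set MBD2 array 1 or control array 3 apart from the rest of its group, and some did not. The G2/M and mitosis genes (25 measured) had medians of -0.98, 1.20 and 1.05 on MBD2 arrays 1, 2 and 3 and of 0.09, 0.11 and -1.46 on control arrays 1, 2 and 3, so they were low on both arrays that stood apart. The linear sum of 6 fibroblast markers was 8984 on MBD2 array 1 and 1934 and 1455 on MBD2 arrays 2 and 3, against 1830, 1710 and 1015 on the control arrays. Of these 6 markers, 3 were highest on MBD2 array 1, DCN, LUM and COL3A1, with log2 values of 12.57, 9.63 and 8.90 there. COL1A1 had 10.60, 10.61 and 9.75 in the MBD2 arrays and 9.35, 9.07 and 8.69 in the control arrays. Its groups did not overlap (log2 fold change 1.28, adjusted p = 0.0918, limma). COL1A2 had 5.92, 6.54 and 6.25 in the MBD2 arrays and 6.04, 5.95 and 5.71 in the control arrays. PDGFRB was at 5.07, 5.05 and 5.26 in the MBD2 arrays and 5.28, 5.17 and 5.33 in the control arrays. The sum of the 4 basal epithelial markers was 27110, 30220 and 25210 on the MBD2 arrays and 41980, 39930 and 25990 on the control arrays. Single basal markers went both ways and 0 were called. KRT5 and KRT14 had log2 fold changes of -1.26 and -0.56, with every MBD2 array below every control array. ITGB4 had 0.81, with every MBD2 array above every control array, and LAMB3 had 0.61 with overlap. The endothelial sum (4 markers) was 119.5 to 133.1 on MBD2 arrays and 121.7 to 136.1 on control arrays, and the leukocyte sum (3 markers) was 64.24 to 84.4 on MBD2 arrays and 76.51 to 82.03 on control arrays. The hybridization controls, bacterial transcripts added to each sample, averaged 10.96, 9.94 and 10.01 on MBD2 arrays 1, 2 and 3 and 11.16, 11.33 and 11.0025 on the control arrays. The log2 signal of the 3′ minus the 5′ probe set was taken as a sign of RNA integrity. For GAPDH it was 1.84, 1.49 and 1.52 on the MBD2 arrays and 2.03, 2.52 and 1.83 on the control arrays. For ACTB it was larger, 3.93, 3.45 and 3.44 on the MBD2 arrays and 3.95, 4.57 and 3.62 on the control arrays. Whether any of these has a part in the pattern of the ribosomal protein genes was not tested.

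Proteins of the small subunit, which reads the mRNA, had a median log2 fold change of -0.21, with 18 of 20 genes below 0 and 0 called. All 20 were below 0 with arrays centred on housekeeping genes, but 10 were above 0 and 10 below 0 without MBD2 array 1 (median -0.0039), and 15 were above 0 without MBD2 array 1 and control array 3 (median 0.10). All 20 were lowest on MBD2 array 1 and 18 were highest on control array 3. RPS25, a protein used by some viral internal ribosome entry sites, had log2 values of 11.42, 12.34 and 12.13 in the MBD2 arrays and 12.26, 12.33 and 12.95 in the control arrays, and the groups overlapped. Its log2 fold change was -0.55 (SE 0.30, adjusted p = 0.398, limma). RPS28, at the mRNA exit channel, had 11.58, 12.90 and 12.74 in the MBD2 arrays and 12.79, 12.80 and 13.27 in the control arrays (log2 fold change -0.55, adjusted p = 0.499, limma). RPS9, at the mRNA entry channel like RPS3, had a log2 fold change of -0.46 with an adjusted p of 0.366 (limma). In all 3 genes MBD2 array 1 lay at least as far from the other MBD2 arrays as the group means lay from each other.

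RPS6, the substrate of S6 kinase, had log2 values of 12.68, 13.47 and 13.39 in the MBD2 arrays and 13.40, 13.42 and 13.96 in the control arrays. MBD2 array 2 was above 2 of the 3 control arrays. RPS19, the gene most often mutated in Diamond-Blackfan anemia, had 12.73, 13.69 and 13.58 in the MBD2 arrays and 13.53, 13.45 and 14.31 in the control arrays, with a log2 fold change of -0.43 (adjusted p = 0.564, limma). RPS27 had 11.75, 12.98 and 12.83 in the MBD2 arrays and 12.19, 12.10 and 13.29 in the control arrays, and the means differed by -0.01.

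Proteins of the large subunit, which joins the amino acids, had a median log2 fold change of -0.07, with 12 of 30 genes above 0, 18 below 0 and 0 called. This tally turned with the arrays used: 22 genes were above 0 without MBD2 array 1 (median 0.22), 21 without control array 3 (median 0.11) and 27 without both (median 0.36). With the near-identical arrays of each group averaged, 0 were above 0 and 30 below 0 (median -0.36). In that setting MBD2 array 1 and control array 3 each weighed as much as the averaged pair of their group. RPL36 had the lowest log2 fold change of all members, with 9.05, 10.95 and 10.63 in the MBD2 arrays and 10.58, 10.57 and 11.60 in the control arrays. MBD2 arrays 2 and 3 were above control arrays 1 and 2, and the log2 fold change was -0.71 (SE 0.57, adjusted p = 0.565, limma). RPL18 had 10.02, 11.67 and 11.44 in the MBD2 arrays and 11.42, 11.48 and 12.29 in the control arrays, with a log2 fold change of -0.68 (adjusted p = 0.515, limma). RPL31, at the exit of the peptide tunnel, had the highest log2 fold change of this group, 0.16, with 11.41, 13.14 and 12.86 in the MBD2 arrays and 12.07, 11.80 and 13.06 in the control arrays. RPL11, which with RPL5 and the 5S ribosomal RNA can bind MDM2 and so stabilize p53, had 9.39, 11.31 and 11.02 in the MBD2 arrays and 10.02, 9.99 and 11.32 in the control arrays. Its groups overlapped over nearly their whole range, and the log2 fold change was 0.13 (SE 0.61). The narrowest range over the arrays was that of RPL37A, 0.20 log2 units, and the widest that of RPL36, 2.56.

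RPL36A was the only large subunit gene with its lowest value on MBD2 array 3, and with RPL27A the only one not lowest on MBD2 array 1. Its log2 values were 5.71, 4.65 and 4.60 in the MBD2 arrays and 5.58, 5.85 and 5.33 in the control arrays, close to the median of 5.24 of all probe sets on an array. RPL36AL, its paralog, fell outside the symbol rule. It had 9.64, 11.20 and 11.01 in the MBD2 arrays and 9.97, 10.11 and 10.996 in the control arrays, lowest on MBD2 array 1.

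The stalk proteins RPLP1 and RPLP2 recruit elongation factors to the large subunit, and neither passed the test. RPLP1 had 12.81, 13.64 and 13.58 in the MBD2 arrays and 13.14, 13.01 and 13.60 in the control arrays, a log2 fold change of 0.09. RPLP2 had 6.57, 7.38 and 7.56 in the MBD2 arrays and 7.24, 7.45 and 7.94 in the control arrays, a log2 fold change of -0.38. Both were lowest on MBD2 array 1.

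The paralogs had a median log2 fold change of 0.39, with 6 of 7 above 0 and 1 called. With arrays centred on housekeeping genes 5 of 7 were above 0, RPL10L being at -0.07. RPS27L had log2 values of 11.39, 11.37 and 11.60 in the MBD2 arrays and 10.40, 10.35 and 10.74 in the control arrays. All 3 MBD2 arrays, array 1 included, lay above all 3 control arrays. The means were 11.46 ± 0.13 in MBD2 arrays and 10.50 ± 0.21 in control arrays (SD, n = 3 each), a 1.94-fold increase with a log2 fold change of 0.96 (SE 0.15, adjusted p = 0.0359, limma). Its other 2 probe sets gave 1.13 and 1.23, again with no overlap between the groups. The call passed narrowly: with single arrays left out, the adjusted p lay between 0.0172 and 0.160 and stayed under 0.05 only without MBD2 array 1 or control array 3. CDKN1A and MDM2, other targets of p53, had log2 fold changes of -0.15 and -0.20 (adjusted p = 0.775 and 0.759, limma).

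RPL7L1, related to a yeast protein that works in the assembly of the large subunit, had 9.75, 11.66 and 11.24 in the MBD2 arrays and 10.10, 10.03 and 10.30 in the control arrays. MBD2 arrays 2 and 3 were well above all controls and MBD2 array 1 was below them, so that the log2 fold change of 0.74 had an SE of 0.49 (adjusted p = 0.480, limma). RPL22L1, the paralog of RPL22, had the widest spread of the paralogs, with 10.03, 12.58 and 12.28 in the MBD2 arrays and 11.55, 11.40 and 11.43 in the control arrays. RPL22 itself had 11.42, 12.93 and 12.82 in the MBD2 arrays and 12.08, 12.24 and 12.83 in the control arrays. Both were low on MBD2 array 1, but control array 3 was high for RPL22 and not for RPL22L1. RPL39L, a form known from testis and some tumors, had 5.23, 6.27 and 6.01 in the MBD2 arrays and 5.28, 5.49 and 5.40 in the control arrays, while RPL39 differed by 0.04 on the log2 scale. RPL26L1 had 9.44, 10.12 and 10.003 in the MBD2 arrays and 9.32, 9.27 and 9.79 in the control arrays (log2 fold change 0.39, adjusted p = 0.435, limma). The paralogs of restricted tissues RPL10L (testis) and RPL3L (striated muscle) had log2 fold changes of 0.03 and -0.12, at means of 5.20 and 5.42 in MBD2 arrays and 5.17 and 5.54 in control arrays, near the array median. RPL3 and RPL7, the partners of RPL3L and RPL7L1, had log2 fold changes of -0.36 and -0.29 and did not pass the test.

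Different probe sets of a gene did not always give 1 answer. Of the 59 genes, 34 had more than 1 probe set, and in 23 of these all probe sets had the same sign while in 11 they did not. Of the probe sets kept, 25 have names ending in _s_at and 19 in _x_at, which mark sequence shared between transcripts. Ribosomal protein genes have many processed pseudogenes, so their signal may include other transcripts. In RPL37A the kept probe set differed by 0.02, another by 0.01 and the other by -1.38. This last one had 8.60, 6.76 and 6.72 in the MBD2 arrays and 8.83, 9.07 and 8.31 in the control arrays. Probe sets not kept had every MBD2 array below every control array in RPL7, RPL18, RPL38, RPLP2, RPS9, RPS12, RPS15A, RPS16 and RPS28. The share of all probe sets with this pattern was not counted, so the list is a description only. On the kept probe sets, 14.6% of all genes had the pattern. The probe sets listed for RPLP2 and RPS9 were dim, with means of 3.20 and 4.67 in MBD2 arrays and 3.84 and 4.81 in control arrays. In RPL38 the groups overlapped on the kept probe set (-0.27), and the others gave -0.46 and -0.61. The former had 9.44, 9.37 and 9.38 in the MBD2 arrays and 9.88, 9.79 and 9.90 in the control arrays.

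The first bases of the genes are shown because a TOP tract is what most of these mRNAs have in common and the symbol rule did not use it. A tract was counted where the annotated first base was C and at least the 4 following bases were C or T, read on the strand of the gene, in RefSeq (GRCh38.p14). It was found in 35 of the 51 members with an entry (68.6%), where 6.07% of 15384 tested genes with an entry and 4.43% of all their starts had one. For a gene with several RefSeq starts, a start with a tract was used where there was one. Among the members with a tract, RPL11, RPL34 and RPS19 had 2 starts each. The RefSeq start need not be the start used in MCF-10A cells, and 8 members had no entry. The run was 5 to 19 bases long with a median of 8, and the longest was that of RPL39. Each line gives 10 bases before the start and the first 20 transcribed bases, with the run in capitals, for named members with a tract.
RPL39, chrX:119791611-119791640, minus strand: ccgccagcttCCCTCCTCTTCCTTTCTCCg
RPLP2, chr11:809957-809986, plus strand: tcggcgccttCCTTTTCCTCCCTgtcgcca
RPLP1, chr15:69452808-69452837, plus strand: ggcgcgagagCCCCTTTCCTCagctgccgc
RPS19, chr19:41860245-41860274, plus strand: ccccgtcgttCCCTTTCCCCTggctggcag
RPS3, chr11:75399508-75399537, plus strand: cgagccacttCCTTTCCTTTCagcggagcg
RPS6, chr9:19380217-19380246, minus strand: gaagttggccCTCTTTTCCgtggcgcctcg
RPL11, chr1:23691796-23691825, plus strand: gctccgctttCTCTTCCTgctctccatcat
RPL31, chr2:101002279-101002308, plus strand: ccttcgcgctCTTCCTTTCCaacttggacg
RPL18, chr19:48619159-48619188, minus strand: agcccgttctCTCTTTCCggacctggccga
RPL36, chr19:5690285-5690314, plus strand: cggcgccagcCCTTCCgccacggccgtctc
RPL22, chr1:6199576-6199605, minus strand: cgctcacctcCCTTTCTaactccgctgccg

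Of the 46 members with an entry that are not paralogs 34 had a tract, and of the 5 paralogs with an entry 1 had, RPL22L1. The starts of the paralogs other than RPS27L are shown in the same way, the one with a tract first, to set them beside the partners.
RPL22L1, chr3:170870176-170870205, minus strand: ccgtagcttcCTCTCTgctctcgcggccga
RPL7L1, chr6:42879606-42879635, plus strand: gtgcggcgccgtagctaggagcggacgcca
RPL26L1, chr5:172958719-172958748, plus strand: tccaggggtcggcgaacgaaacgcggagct
RPL10L, chr14:46651762-46651791, minus strand: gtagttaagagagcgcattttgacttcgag

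The 35 members with a tract and the 16 without were set side by side, with no test. Their median log2 fold changes were -0.12 with a tract and -0.07 without, and 33 of 35 and 14 of 16 were lowest on MBD2 array 1. On control array 3, 25 of the 35 with a tract and 8 of the 16 without were highest. The median member with a tract was at -0.72 on MBD2 array 1 and 0.44 on control array 3, and the median member without was at -0.75 and 0.29.

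The promoters of RPS27L and RPS27 are printed because RPS27L was the only member called on the 6 arrays, where its partner was not called. Without MBD2 array 1 and control array 3 both were called higher, RPS27L at 1.11 and RPS27 at 0.76 on the log2 scale (adjusted p = 0.00031 and 0.0016, limma). Each line gives 250 bases before the RefSeq start and the first 20 transcribed bases (GRCh38.p14), with a TOP tract in capitals where there is one.
RPS27L, chr15:63157458-63157727, minus strand: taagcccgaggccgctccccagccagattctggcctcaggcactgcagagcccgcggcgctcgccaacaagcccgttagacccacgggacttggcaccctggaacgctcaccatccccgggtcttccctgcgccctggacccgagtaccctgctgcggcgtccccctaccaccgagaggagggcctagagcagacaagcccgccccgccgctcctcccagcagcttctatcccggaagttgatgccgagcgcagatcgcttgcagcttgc
RPS27, chr1:153990512-153990781, plus strand: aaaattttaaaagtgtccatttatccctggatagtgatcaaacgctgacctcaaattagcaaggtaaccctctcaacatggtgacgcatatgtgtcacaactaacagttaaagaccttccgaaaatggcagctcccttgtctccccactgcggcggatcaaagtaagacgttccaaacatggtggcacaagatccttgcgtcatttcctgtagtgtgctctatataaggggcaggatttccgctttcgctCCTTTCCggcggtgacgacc

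RPS27 began with a tract of 7 bases and RPS27L had none at its annotated start. The window of RPS27L held 22 CpG sites, the sequence that DNA methylation marks, and that of RPS27 held 12. Over 300 bases around the start, the members had a median of 23 CpG sites (range 6 to 38) and tested genes with an entry 22. Methylation was not measured on these arrays.

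The rest of the translation machinery was set beside the members through lists chosen with earlier results of these data known. The mitochondrial ribosomal proteins (75 of 78 measured) had 0 genes called higher and 1 lower, MRPL34, with log2 values of 6.63, 7.12 and 6.78 in the MBD2 arrays and 7.86, 7.85 and 8.05 in the control arrays (log2 fold change -1.08, adjusted p = 0.0326, limma). With single arrays left out, its adjusted p was 0.0140 without MBD2 array 1 and 0.0520 to 0.156 without any other array. In 67 of the 75 the lowest value was on MBD2 array 1 (89.3%), but in 13 the highest was on control array 3 (17.3%). The ribosome biogenesis factors (66 measured) had 0 called either way, with 55 lowest on MBD2 array 1 and 3 highest on control array 3. Their medians on MBD2 arrays 1, 2 and 3 were -0.52, 0.49 and 0.29, against -0.05, -0.09 and -0.08 on the control arrays. The low values on MBD2 array 1 were thus seen in these lists too, while the high values on control array 3 were not seen in ribosome biogenesis.

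Among 36 initiation factors and 7 elongation factors 0 genes were called, and 24 and 2 of them were lowest on MBD2 array 1. Of 16 other mRNAs with a TOP tract, such as the elongation factor EEF1A1, 0 were called and 10 were lowest on MBD2 array 1. Of these 16, 11 were counted as highest on control array 3. EEF1A1 was among the 11 by a tie, with 14.74 on that array and on MBD2 arrays 2 and 3. FAU is in this list and also among the ribosomal proteins under other symbols. RNA polymerase I and its factors (15 measured) and the genes that link RPL11 to p53 (4 measured) had 0 calls. Of the 2 measured ribosomal proteins under other symbols, RPL36AL and FAU, 0 were called. FAU, whose product includes RPS30 and which was named after its values were seen, had a log2 fold change of -0.60 (adjusted p = 0.362, limma). The housekeeping genes outside the ribosome (23 measured) had 0 calls and medians of -0.08, 0.15 and 0.16 on the MBD2 arrays and -0.03, -0.08 and -0.09 on the control arrays, a narrower range than the members had.

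**Figure D3:**
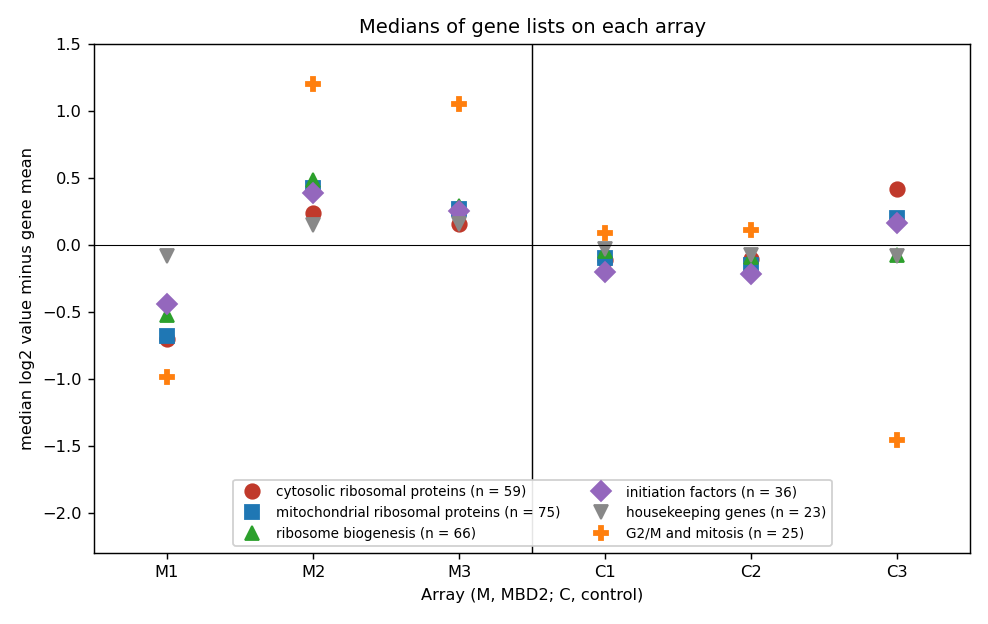
Median over the genes of each list of the log2 value minus the mean of the gene, for MBD2 arrays M1 to M3 and control arrays C1 to C3. The cytosolic ribosomal proteins are at -0.71 on M1 and 0.41 on C3, the mitochondrial ones at -0.68 and 0.20, and the G2/M genes at -0.98 and -1.46.

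The regulators of ribosomal protein synthesis (21 measured) had 0 genes called higher and 1 lower. This was MXD1, a MAX partner that opposes MYC, with 9.22, 9.03 and 9.01 in the MBD2 arrays and 9.82, 9.90 and 10.24 in the control arrays (log2 fold change -0.90, adjusted p = 0.0416, limma). The groups did not overlap. Its adjusted p stayed under 0.05 without MBD2 array 1 (0.0168) or control array 3 (0.0470) and was 0.131 to 0.192 without any other array.

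Without the arrays that stood apart, the counts of ribosomal protein genes were different. Without MBD2 array 1, 4 members were higher (RPS27L, RPL7L1, RPL22L1 and RPL39L) and 1 was lower (RPL36A), where 10.3% and 6.51% of all genes were called higher and lower. All 4 are paralogs. Without MBD2 array 1 and control array 3, 26 members were higher and 2, RPL27A and RPL36A, were lower, where 22.1% and 16.2% of all genes were called. The median log2 fold change was then 0.29, with 51 of 59 above 0, beside 0.01 over all genes. In that fit RPS27L had a log2 fold change of 1.11 (adjusted p = 0.00031, limma), RPL7L1 1.38, RPL11 1.16 and RPL31 1.07. Those counts rest on 2 pairs of near-identical arrays, and their p-values measure the spread within those pairs. RPL27A and RPL36A, called lower there, had 1 probe set each. Their control means were 9.39 and 5.58, dim beside the median member level of 12.66.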

How the data were processed

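RNA of control MCF-10A cells and of cells carrying the MBD2 lentivirus was hybridized to Affymetrix Human Genome U133 Plus 2.0 arrays. The authors deposited RMA-normalized log2 values, 1 per probe set and array. The submitters' processing notes name RMA and affy, with versions not given in the sources used here. Gene names came from the platform table: 41091 had 1 symbol, 1801 several and 11783 none or were controls of the array. For each gene the brightest probe set on average was kept, with no filter on dim ones, and 19775 genes entered the fit. Groups were taken from the labels and compared with limma 3.58.1 in R 4.3.3 (lmFit on group alone, then eBayes), with Benjamini-Hochberg adjustment across those genes. Genes were called at an adjusted p under 0.05 with no condition on fold. The fit was tested on simulated data with known changes. Arrays hold no counts, so depth does not apply.

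The members and gene lists were chosen with earlier results of these data known. Named by rule were MBD2, the paralogs with their partners, the stalk genes, RPSA, RPS27A, RPL5, RPL11, RPS19, RPL13A, RPS6, every called member, the 6 highest and 6 lowest fold changes, and up to 4 called genes of each other list. RPL27A, RPS3, RPS21, RPL37A, RPL38 and FAU were added after their values were seen, as were the genes named for probe sets not kept. Same-numbered arrays of the groups were not treated as pairs, since the correlations of their deviations from the group means were 0.17, -0.27 and 0.21. Sequences came from RefSeq (GRCh38.p14) with chromosome 8 left out, where 51 members had an entry. Alternatives were other probe set choices, a filter on dim genes, other scalings, another variance model, a replicate block, arrays left out, near-identical arrays averaged and other thresholds.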

Additional observations from a re-analysis of the deposited data

How the results depend on the processing

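RPS27L kept its direction under every alternative, but the call depended on the setting. It was lost, leaving 0 members called higher, with the mean of all probe sets (log2 fold change 1.11, adjusted p = 0.0703), with only probe sets without a shared-sequence ending (1.23, 0.165, 36 members), with centring on housekeeping genes (0.86, 0.0551), with trend and robust fitting (0.96, 0.0754), with the replicate block (0.96, 0.0900) and with near-identical arrays averaged (0.88, 0.474), all by limma. It was kept with genes of a mean of at least 5, with a further quantile normalization, with a 1.5-fold condition and with MBD2 array 1 and control array 3 omitted together. Averaging called 0 of all genes, where 4 averaged values remained, the replicate block 63 and the full fit 549, and the cause was not tested. With single arrays left out, members called higher numbered 0 to 4 and members called lower 0 to 1, the log2 fold change of RPS27L ran over 0.89 to 1.08, and the number of all genes called ran over 19 (without control array 2) to 3318 (without MBD2 array 1). It was 29 without control array 1, 46 without MBD2 array 3, 93 without MBD2 array 2 and 692 without control array 3. With MBD2 array 1 and control array 3 omitted together 26 members were called higher and 2 lower, with 7560 of all genes called. At an unadjusted p under 0.05 1 member was lower. The median log2 fold change of the members was -0.30 to 0.10 when each array was left out, -0.37 with averaging and 0.29 with both arrays out. Centring on housekeeping genes moved the median of all genes to -0.12 and that of the members to -0.21.

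Among the genes named by rule or by their separate groups, changes of sign concerned genes that did not pass the test in the full fit, and their cause was not tested. The log2 fold changes were -0.0067 for RPL22 with the mean of all probe sets. With only probe sets without a shared-sequence ending they were -0.029 for RPL22, -0.082 for RPLP1 and 0.18 for RPS6. With centring on housekeeping genes they were -0.0695 for RPL10L, -0.092 for RPL22, -0.057 for RPL39 and -0.0075 for RPLP1. With near-identical arrays averaged they were -0.38 for RPL10L, -0.22 for RPL22L1, -0.35 for RPL22, -0.0998 for RPL39, -0.13 for RPLP1, -0.38 for RPL11 and -0.29 for RPL31. With MBD2 array 1 and control array 3 omitted together they were 0.076 for RPL3L, 0.17 for RPL3, 0.066 for RPL7, 0.76 for RPS27, 0.12 for RPLP2, 0.14 for RPS19, 0.016 for RPS6, 0.22 for RPL36, 0.11 for RPL18 and 0.026 for RPS28. With single arrays left out they ran over -0.23 to 0.039 for RPL3L, -0.23 to 0.38 for RPS27, -0.20 to 0.49 for RPL10L, -0.31 to 0.97 for RPL22L1, -0.26 to 0.49 for RPL22, -0.046 to 0.22 for RPL39, -0.054 to 0.36 for RPLP1, -0.24 to 0.72 for RPL11 and -0.18 to 0.69 for RPL31. Without both arrays RPS27 was called after its change of sign (adjusted p = 0.0016, limma), as were RPL12, RPL29, RPL32, RPL35, RPL38 and RPS23, whose log2 fold changes there were 0.81, 0.95, 0.66, 0.61, 0.36 and 0.40. MRPL34 and MXD1 were not called with the replicate block (adjusted p = 0.109 and 0.131) or with near-identical arrays averaged (0.392 and 0.484), and MXD1 not with the mean of all probe sets (0.0840), housekeeping centring (0.0602) or trend and robust fitting (0.0996, all limma). MBD2 itself was above an adjusted p of 0.05 without MBD2 array 3 (0.0664) and without control array 1 (0.0760) or 2 (0.0838, limma). Arrays have no counts, so signal over background and the number of arrays limit what can be seen.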
